A study of Rattus norvegicus with 9 samples.

Results

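The liver cells that a rat fetus holds shortly before birth were compared with the hepatocytes of a young adult, across 14497 genes. The fetal cells were the LAP+/OC.2- preparations of embryonic day 19 (3 arrays, here OC.2- cells), and the reference was adult hepatocytes of rats aged 5 to 6 weeks (3 arrays). The groups were taken from the sample titles, and together they are 6 of the 9 arrays of the series. The other 3 arrays hold LAP+/OC.2+ fetal cells of the same day (OC.2+ cells) and enter the comparison through the shared estimate of the spread and as levels set beside some results.

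All animals were F344 rats with free access to food and water, and the labels name no treatment for any of the groups. Adult hepatocytes came from a collagenase perfusion in 2 steps. Fetal livers were digested with collagenase, and the cells were purified on an AutoMACS separator with monoclonal antibodies to leucine aminopeptidase (LAP), described as a surface marker of hepatic cells, and to OC.2, described as a marker of duct cells. The 2 kinds of preparation therefore differ in age and also in how the cells were obtained, and these cannot be told apart in the comparison. The isolation text names a double positive programme for OC.2- and OC.2+ cells alike, so the OC.2- name rests on the titles and cell type labels. The sex of the animals and the number of livers in a preparation are not given in the labels, whose titles number the preparations as biological replicates. The RNA of every preparation was hybridised to its own Affymetrix Rat ST 1.0 array.

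Hepatocytes make most plasma proteins, detoxify drugs, make bile acids, urea and glucose, and burn and build fat. In a rodent much of this programme is switched on around and after birth, while genes of the hepatoblast, such as alpha-fetoprotein, are switched off. Until birth the liver is also a site of blood formation, so its hepatocytes lie among red-cell precursors, other blood cells, endothelium and mesenchyme. For this reason the lists of hepatocyte functions and the markers of other cells are described as separate components. In bulk samples such as these, fewer cells of a type and less RNA per cell cannot be told apart.

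One gene of each main pattern below, and albumin as the gene shared by both groups, are shown here by their promoters, which are the 300 bases around the start site in RefSeq (assembly GRCr8), all on the minus strand. Alb (chr14:17906930-17907229) is the albumin gene, bright in both groups, and Afp (chr14:17875596-17875895) is its neighbour on the chromosome and the alpha-fetoprotein gene, high in the fetal cells. Cyp3a2 (chr12:14343808-14344107) is a P450 of the adult cells, and Hbb (chr1:167663672-167663971) is a beta-globin of red cells. Capitals mark matches to GTTAATNAT (bound by HNF1), CAAAGTCCA (HNF4), TTGCNNAA (C/EBP factors) and CCACACCC (the red-cell factor KLF1), each searched on both strands, and no marked match overlaps another.
Alb: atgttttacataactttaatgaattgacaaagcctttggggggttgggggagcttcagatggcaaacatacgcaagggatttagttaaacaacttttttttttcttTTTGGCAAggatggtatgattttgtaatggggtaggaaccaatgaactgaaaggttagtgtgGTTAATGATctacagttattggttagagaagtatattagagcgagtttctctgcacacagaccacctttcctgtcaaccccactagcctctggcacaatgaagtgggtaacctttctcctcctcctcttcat
Afp: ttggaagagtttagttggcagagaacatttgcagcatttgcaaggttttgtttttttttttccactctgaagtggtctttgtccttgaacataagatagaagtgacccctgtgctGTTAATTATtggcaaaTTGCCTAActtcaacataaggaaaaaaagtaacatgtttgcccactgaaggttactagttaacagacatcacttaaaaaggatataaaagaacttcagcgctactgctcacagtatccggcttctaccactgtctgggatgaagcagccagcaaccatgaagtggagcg
Cyp3a2: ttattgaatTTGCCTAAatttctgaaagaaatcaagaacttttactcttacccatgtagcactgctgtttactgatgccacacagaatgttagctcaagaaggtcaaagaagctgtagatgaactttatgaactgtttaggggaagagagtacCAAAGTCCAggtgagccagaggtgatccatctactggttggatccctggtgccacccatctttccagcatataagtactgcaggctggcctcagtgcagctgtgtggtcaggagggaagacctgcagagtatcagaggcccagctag
Hbb: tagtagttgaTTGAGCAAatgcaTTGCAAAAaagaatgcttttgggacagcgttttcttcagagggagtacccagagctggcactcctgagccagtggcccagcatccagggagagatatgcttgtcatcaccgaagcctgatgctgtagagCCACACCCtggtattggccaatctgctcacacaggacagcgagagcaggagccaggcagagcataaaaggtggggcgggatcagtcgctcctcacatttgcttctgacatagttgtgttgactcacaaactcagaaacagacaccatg

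The HNF1 letters stood in both the Alb and the Afp promoter, and the HNF4 letters in that of Cyp3a2. Each of the 4 promoters had at least 1 C/EBP match, and that of Hbb had the KLF1 letters as well. RefSeq promoters were matched to 11963 of the genes tested, to 34 of the 42 genes called at least 8-fold higher in OC.2- cells and to 105 of the 126 called at least 8-fold lower. The C/EBP letters were in 14.7% of the first set and 21.0% of the second, against 9.96% of all tested genes with a promoter. The HNF4 letters were in 0 of the 34 and in 2.86% of the 105 (Baat, Cyp3a2 and Cyp3a23-3a1), against 0.393%. The HNF1 letters were in 1 of the 34 (Afp, 2.94%) and 2 of the 105 (G6pc1 and Rup2, 1.90%), against 0.685%. The KLF1 letters were in 2 of the 34 (Hbb and Rhd, 5.88%) and 1 of the 105 (Inhbe, 0.952%), against 3.39%. AGATAAG, the GATA site, was in 1 of the 34 (Rhd, 2.94%) and 2 of the 105 (Cyp2j3 and Spink1l, 1.90%), against 2.47%. The TATA box letters TATAAA were in 26.5% and 22.9%, against 11.8%. In all 27457 RefSeq promoters of this length the shares were 0.750% for HNF1, 0.375% for HNF4, 10.5% for C/EBP, 3.23% for KLF1, 2.77% for GATA and 14.3% for TATAAA. These are descriptions of letters, without a test, in gene sets chosen by their fold.

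The arrays of a group resembled each other closely. Correlations of log2 intensity over all genes were 0.988 to 0.991 between adult arrays, 0.986 to 0.991 between OC.2- arrays and 0.902 to 0.916 across the groups. Median intensity of the same probe sets was 79.5 to 81.0 on adult and 86.5 to 89.7 on OC.2- arrays, so it moved with the comparison. In log2 units the medians of the 9 arrays were 6.31 to 6.49, and no detection call was used, so a gene near or below these values may not have been expressed at all. Precision is limited by the few arrays: the standard error of a log2 difference had a median of 0.0946 over all genes. The 3 arrays of a group agree within 0.001 log2 units for 108 genes in adult and 244 genes in OC.2- cells, Dnmt1, Pkm and Slc7a5 among the latter, so the spread of such genes is not a measure of replicate error, and the cause was not tested. Folds are given with 95% intervals, log2 differences as OC.2- minus adult with standard errors, and adjusted p-values are limma's.

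Both groups carried the defining RNAs of hepatocytes. Log2 intensity of Ttr, the thyroxine carrier transthyretin, was 13.87, 13.70 and 13.73 on the adult arrays and 13.34, 13.33 and 13.25 on the OC.2- arrays. Apob, the structural protein of very-low-density lipoprotein, stood at 12.56, 12.55 and 12.58 against 11.84, 11.87 and 11.84. Hnf4a, a transcription factor at the centre of hepatocyte identity, stood at 11.09, 10.95 and 10.90 against 9.84, 10.02 and 9.67, and Cps1, which starts the urea cycle, at 12.36, 12.20 and 12.29 against 11.47, 11.69 and 11.37. All these values lie well above the array medians, and each gene was lower in the OC.2- cells. On the OC.2+ arrays Hnf4a was at 7.30, 7.17 and 7.26 and Apob at 9.09, 8.83 and 9.06, below both other groups. The gene that encodes the LAP antigen is not named in the labels. The gene Lap3, for cytosolic leucine aminopeptidase, was at 10.76, 10.99 and 10.72 in adult and 10.52, 10.72 and 10.36 in OC.2- cells, a difference of -0.29 ± 0.10 (adjusted p = 0.0335) that missed the threshold with only the 6 arrays compared (adjusted p = 0.0738). Anpep, a membrane aminopeptidase of the bile canaliculus, was 2.25-fold (95% interval 2.00 to 2.53) lower in the fetal cells.

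Of the 14497 genes, 3431 (23.7%) were called higher in OC.2- cells and 3027 (20.9%) lower at adjusted p under 0.05. At least 2-fold, 588 (4.06%) were higher and 954 (6.58%) lower, and at least 8-fold 42 were higher and 126 lower. All 3 OC.2- arrays lay above all 3 adult arrays for 4093 genes (28.2%) and below them for 3361 (23.2%). The small differences depended on the scaling. Of the called genes 53.1% were higher as deposited. Quantile normalization gave 47.7%, cyclic loess 42.5% (2619 higher, 3550 lower) and median centring 34.6% (2139 higher, 4041 lower). The median difference of all genes was 0.066 as deposited and -0.063 after median centring. Many of the large differences had 1 group near background. On all OC.2- arrays 53 of the 126 genes at least 8-fold lower lay below the array median, and on all adult arrays 21 of the 42 at least 8-fold higher did, so those folds rest on a level that may be background.

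The 1142 measured genes on the 41 lists of hepatocyte functions, growth and other cell types differed in direction by component. The lists were chosen with earlier results of these data known, so this split is a description and not a test. Of 672 genes on hepatocyte lists only, 433 (64.4%) were lower in OC.2- cells and 102 (15.2%) higher, with a median log2 difference of -0.71. Among these, 75 were at least 8-fold lower and 9 at least 8-fold higher. The 252 genes on lists of other cell types only ran the other way, with 159 (63.1%) higher and 10 (3.97%) lower, a median of 0.44, and 12 higher against 0 lower at 8-fold. Genes of growth and cell state numbered 209, with 124 (59.3%) higher, 35 (16.7%) lower and a median of 0.50. Of 9 genes on both a hepatocyte list and a list of other cells 8 were higher. On no list were 13355 genes, of which 22.7% were higher and 19.1% lower. These shares are read against the 23.7% and 20.9% of all genes.

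**Figure D1:**
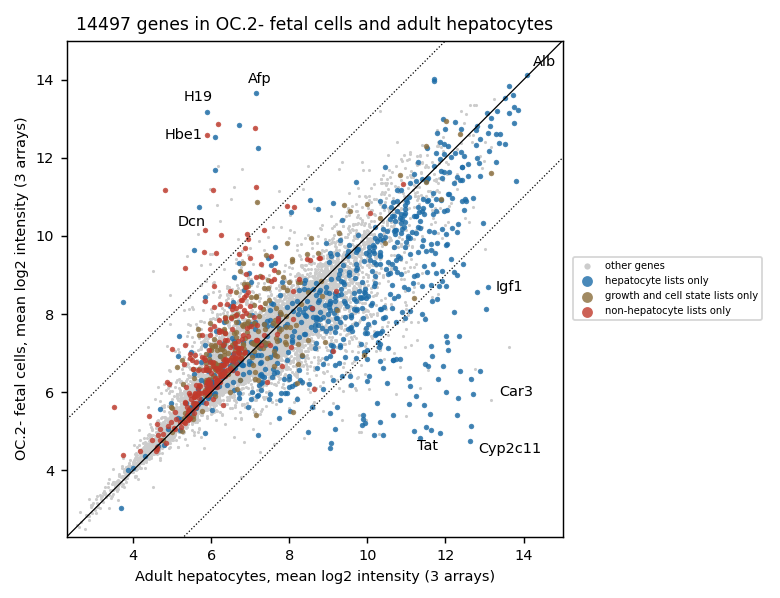
Mean log2 intensity of 14497 genes in adult hepatocytes (x axis, 3 arrays) and OC.2- fetal cells (y axis, 3 arrays), coloured by component, with the line of equality and dotted lines at an 8-fold difference. Afp, H19, Hbe1 and Dcn stand above the equality line, Tat, Cyp2c11, Car3 and Igf1 below it, and Alb on it.

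**Figure D2:**
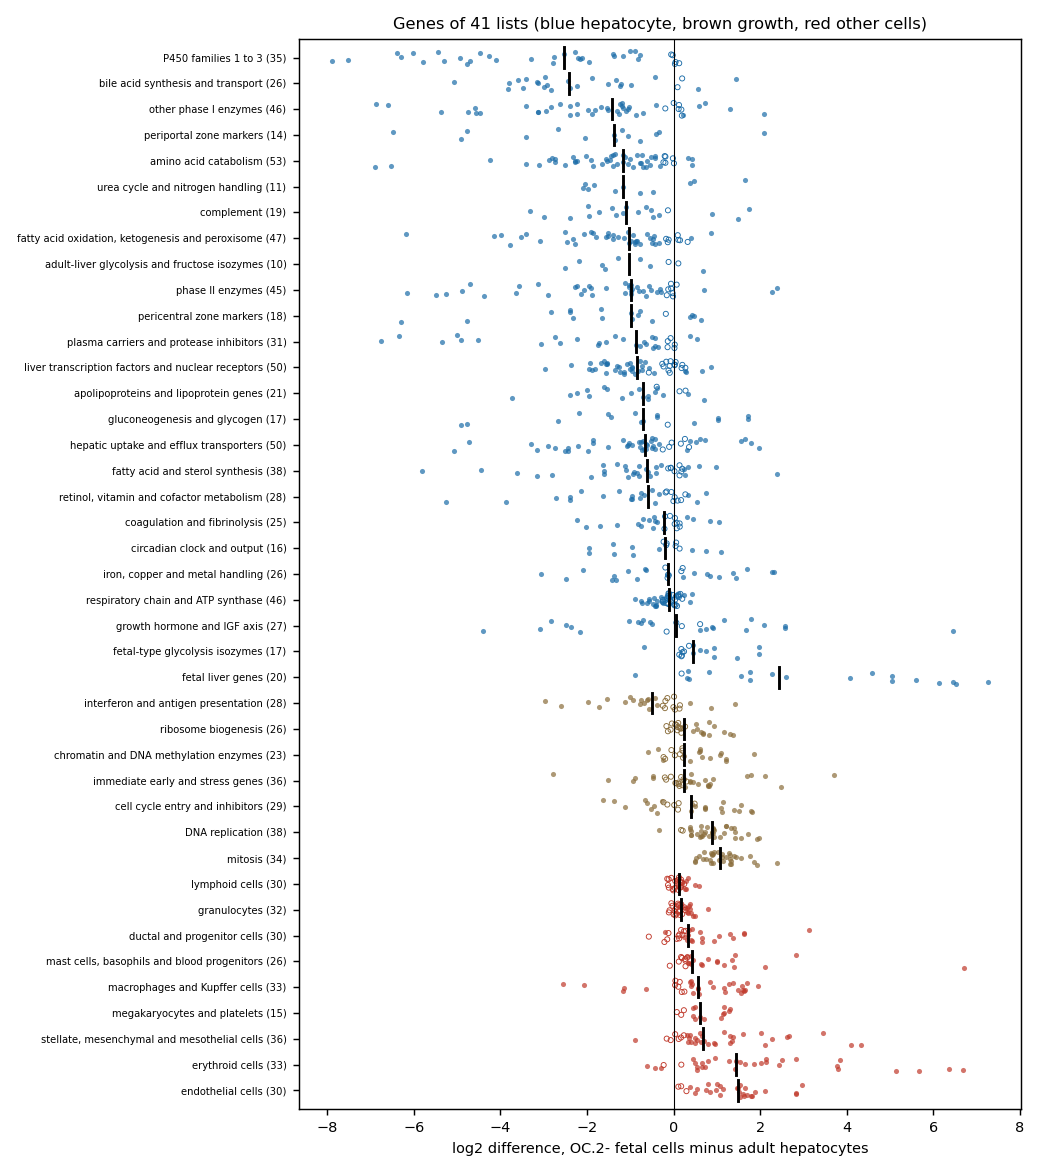
Log2 difference, OC.2- minus adult, of each measured gene on 41 lists, with the number of genes in parentheses, filled points for called genes, open points for the others and a black bar at the median. P450 families 1 to 3 have the lowest median (-2.53), fetal liver genes the highest (2.44), and endothelial cells the highest among the lists of other cells (1.48).

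The fetal programme stood far above its adult level. Of 20 measured fetal liver genes 18 were higher in OC.2- cells and 1 lower (median 2.44). Afp, the main serum protein of the fetus, was 7.28, 6.94 and 7.21 on the adult arrays and 13.76, 13.66 and 13.57 on the OC.2- arrays. The groups lie far apart with little spread inside either, a difference of 91.7-fold (95% interval 79.4 to 106, adjusted p = 7.25e-14). H19, an imprinted non-coding RNA, was 5.44, 5.98 and 6.28 in adult and 13.12, 13.21 and 13.17 in fetal cells, a difference of 154-fold (95% interval 122 to 195), the widest upwards of all genes on the probe sets kept. Its other probe set gave a log2 difference of 5.96, against 7.27 here. Its adult values lie below the array medians and differ between replicates, so this fold leans on a dim reference. Gpc3, a heparan sulphate proteoglycan of the cell surface, was 6.27, 6.21 and 5.77 against 11.64, 11.85 and 11.60, which is 48.8-fold (95% interval 40.3 to 59.3). A2m, alpha-2-macroglobulin, a protease inhibitor that the rat makes before birth and in the acute phase, was 6.66, 6.92 and 6.58 against 12.88, 12.88 and 12.80, which is 70.2-fold (95% interval 61.0 to 80.9).

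Several of the genes are imprinted or act in fetal growth. Markers of mesenchyme and endothelium were also higher in the OC.2- cells, as described below, and the part of such cells in these values was not tested. Dlk1, a surface protein used to isolate hepatoblasts, was 7.09, 7.44 and 7.05 on adult and 12.31, 12.22 and 12.21 on OC.2- arrays, 33.1-fold higher (95% interval 28.5 to 38.5). Grb10, an adaptor that restrains insulin and IGF receptor signalling, was 33.3-fold (95% interval 29.2 to 37.9) higher, and Meg3, the non-coding RNA of the Dlk1 locus, which is on no list, 30.3-fold (95% interval 24.9 to 36.7) higher. Mest differed by 4.07 ± 0.11, Plagl1 by 2.60 ± 0.11 and the cell cycle inhibitor Cdkn1c by 1.57 ± 0.12. Igf2bp1, an RNA-binding protein of fetal tissue, was 6.37, 6.85 and 6.41 against 8.28, 8.50 and 8.17. The oncofetal factors were closer to the adult level: Hmga2 differed by 0.31 ± 0.08 and Trim71 by 0.32 ± 0.12, both from adult values near the array medians. Spink1, a trypsin inhibitor, was the 1 member called lower, at -0.89 ± 0.13, and Bex1 was not called (adjusted p = 0.129).

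Albumin and some other bright RNAs of plasma proteins lay close to the adult level. The gene Alb, for albumin, was 14.19, 14.07 and 14.01 in adult and 14.19, 14.11 and 14.03 in OC.2- cells, and the arrays overlap (difference 0.02 ± 0.08, 95% interval -0.15 to 0.19). The difference depended on the scaling and was -0.295 with quantile normalization, -0.108 with median centring and -0.50 with cyclic loess, and adjusted p-values were 0.0029, 0.35 and 6.8e-05. Its values also sit at the top of the scale, where the highest value of any probe set was 14.01 to 14.41 on these 6 arrays, and compression there was not tested. Ahsg, fetuin-A, a carrier of calcium phosphate, was 13.57, 13.49 and 13.48 against 13.62, 13.54 and 13.46 (difference 95% interval -0.14 to 0.20). The iron carrier transferrin (Tf) differed by -0.14 ± 0.08 and the elastase inhibitor Serpina1 by -0.13 ± 0.08, neither of them called.

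Other plasma proteins lay far below the adult level. Of 31 measured plasma carriers and protease inhibitors 24 were lower in OC.2- cells, 2 higher and 5 not called (median -0.86). Serpina3c, a serine protease inhibitor, was 12.78, 12.65 and 12.65 on adult and 5.75, 5.97 and 6.12 on OC.2- arrays, all of the latter below the array medians, which is 108-fold (95% interval 88.7 to 130.5) lower. Mug1, the murinoglobulin of adult rat plasma and a relative of A2m, had a mean of 12.89 in adult and 6.54 in fetal cells, 81.7-fold lower (95% interval 66.9 to 99.7), opposite in direction to A2m. Mug1l1 and Mug2 are close relatives whose probes may share transcripts with Mug1, and they were 89.5-fold and 32.1-fold lower. Orm1, the acute-phase orosomucoid, was 11.23, 10.78 and 11.15 against 5.89, 5.62 and 5.59 (40.9-fold lower). Ceruloplasmin (Cp), the copper oxidase, differed by -3.06 ± 0.14, and Hrg, a histidine-rich glycoprotein, by -2.62 ± 0.10. Milder differences were those of haemopexin (Hpx, -0.86 ± 0.11) and the retinol carrier Rbp4 (-0.43 ± 0.09). The 2 called higher were the corticosteroid carrier Serpina6, at a mean of 11.87 in adult and 12.41 in OC.2- cells, and the plasmin inhibitor Serpinf2 (0.38 ± 0.09). Cyclic loess ended the call of the gene Serpina6 (adjusted p = 0.139) and of the gene Serpinf2 (adjusted p = 0.261).

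**Figure D3:**
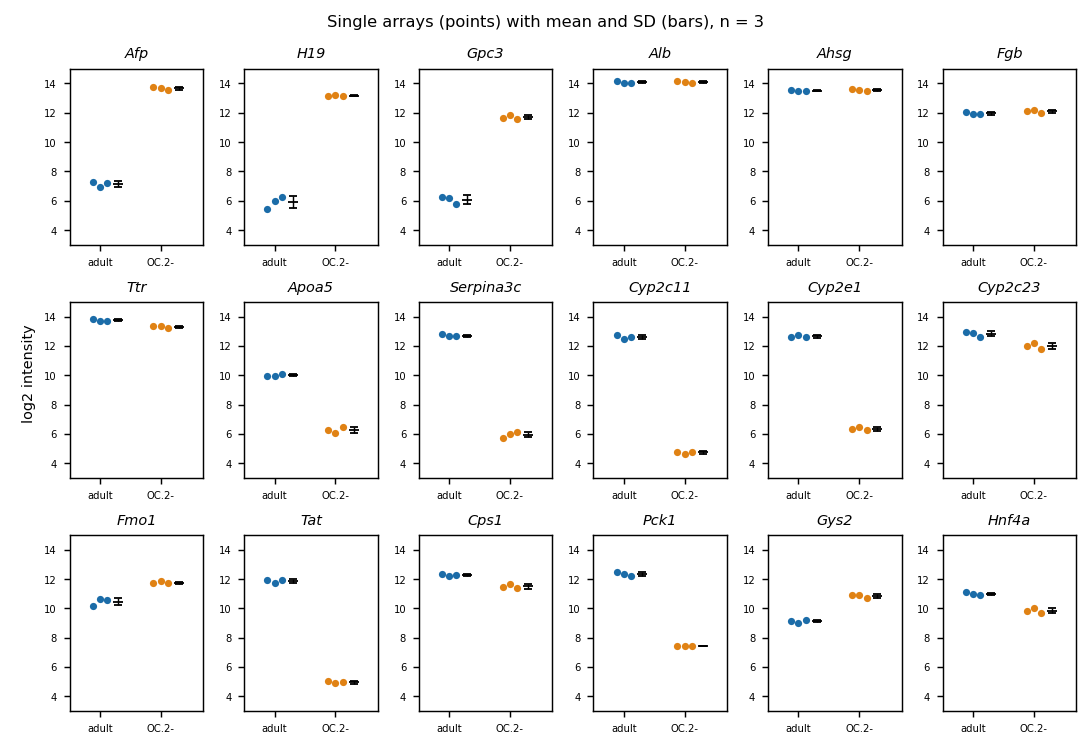
Log2 intensity of 18 genes in adult hepatocytes (blue) and OC.2- fetal cells (orange), 1 point for each array with the mean and SD of 3 beside them. Afp, H19 and Gpc3 are high in the fetal cells and Alb, Ahsg and Fgb overlap, while Cyp2c11, Cyp2e1, Tat and Pck1 are far below the adult level and Fmo1 and Gys2 above it.

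Most lipoprotein genes were lower, Apoa1 being the main exception. Of 21 genes 16 were lower and 2 higher in OC.2- cells (median -0.72). Apoa5, which speeds the clearance of triglyceride, was 9.96, 9.97 and 10.06 in adult and 6.26, 6.07 and 6.49 in fetal cells and the most reduced, 13.2-fold (95% interval 11.3 to 15.5) lower. Apoc3, which slows that clearance, was 13.84, 13.80 and 13.78 against 11.45, 11.53 and 11.26, 5.28-fold lower (95% interval 4.52 to 6.17), and Lcat, which esterifies plasma cholesterol, differed by -2.00 ± 0.09. Apoa1, the main protein of high-density lipoprotein, ran the other way, from 12.24, 12.24 and 12.22 in adult to 12.96, 12.96 and 12.86 in OC.2- cells with no overlap, 1.62-fold higher (95% interval 1.37 to 1.91, adjusted p = 0.000168). The gene Apoc4 was also called higher (0.34 ± 0.11), a call lost with median centring (0.215, adjusted p = 0.152), cyclic loess (0.036, adjusted p = 0.795) and without adult replicate 3 or OC.2- replicate 1 or 2. Mttp, which loads lipid onto Apob, was not called (0.28 ± 0.12, adjusted p = 0.0697).

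Complement lay lower, with clotting divided. Of 19 complement genes 15 were lower and 3 higher in OC.2- cells (median -1.09). The terminal component C9, which forms the membrane pore, was 11.68, 11.55 and 11.72 against 8.36, 8.37 and 8.26, 9.98-fold lower (95% interval 8.70 to 11.5), and the proteases C1s and C1r were 7.90-fold and 5.23-fold lower. C3, the hub of the cascade, differed by -0.48 ± 0.07. The 3 higher members C1qa, Cfp and C7 are made mainly by macrophages and mesenchyme, and C1qa is also on the macrophage list described below. The part of such cells in these values was not tested. Of 25 coagulation genes 12 were lower, 4 higher and 9 not called (median -0.21). The fibrinogen chains were among those not called: Fga was 12.88, 12.76 and 12.76 in adult and 12.81, 12.92 and 12.76 in OC.2- cells, with differences of 0.03 ± 0.09, 0.14 ± 0.09 for Fgb and 0.08 ± 0.08 for Fgg. Prothrombin (F2) differed by -0.21 ± 0.10 (adjusted p = 0.0994). Factor VII (F7), which starts clotting, was 9.18, 8.95 and 9.13 against 7.02, 7.14 and 7.02 (4.08-fold lower), and protein S (Pros1), an anticoagulant cofactor, 4.69-fold lower. Kininogen Kng1, the precursor of bradykinin, was 12.02, 11.84 and 11.92 against 12.96, 13.13 and 12.87 (2.08-fold higher), with its near-identical relative Kng2 at 0.84 ± 0.09.

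The P450 list of drug-metabolising enzymes had the lowest median of all lists. Of 35 genes of P450 families 1 to 3 with their electron donors, 30 were lower in OC.2- cells and 0 higher (median -2.53). Cyp2c11, a steroid hydroxylase typical of the male rat, was 12.78, 12.48 and 12.63 on adult and 4.79, 4.65 and 4.78 on OC.2- arrays. Every fetal value lies below the array medians, and the difference was 237-fold (95% interval 202 to 279, adjusted p = 6.6e-14), the widest of all genes. Cyp2c13, another enzyme of the male rat, was 12.80, 12.56 and 12.63 against 4.81, 5.38 and 5.23 (184-fold lower). Cyp2c12, typical of the female rat, was 9.34, 8.77 and 9.39 against 4.98, 5.13 and 5.07. Cyp2e1, which oxidises ethanol, was 12.59, 12.72 and 12.62 against 6.30, 6.47 and 6.24, 79.1-fold lower (95% interval 69.1 to 90.5), and Cyp3a2, whose promoter is given above, 11.57, 11.53 and 11.41 against 5.15, 5.11 and 5.09, 83.5-fold lower (95% interval 72.0 to 96.8). Cyp1a2, which clears caffeine, was 27.2-fold lower.

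A few P450 genes stood apart from this pattern. Cyp2c23, an epoxygenase of arachidonic acid, was 12.95, 12.87 and 12.63 in adult and still 11.99, 12.18 and 11.78 in OC.2- cells, only 1.78-fold (95% interval 1.46 to 2.17) lower. Por, the reductase that feeds electrons to all microsomal P450 enzymes, differed by -0.90 ± 0.09, and cytochrome b5 (Cyb5a) by -1.01 ± 0.09. Cyp1a1, Cyp1b1, Cyp2a3, Cyp2j10 and Cyp2s1 were not called and lay below the array medians in both groups. P450 genes of one subfamily are near-identical, so probes of Cyp2c, Cyp2d and Cyp3a members may share transcripts.

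The other enzymes of drug handling were lower in most cases. Of 46 other phase I genes 35 were lower and 5 higher (median -1.41), and of 45 phase II genes 35 were lower and 3 higher (median -0.98). Dhrs7l1, a short-chain dehydrogenase, was 117-fold lower and the steroid dehydrogenase Hsd3b5 96.8-fold lower. The carboxylesterase Ces1c was 10.89, 11.25 and 11.61 against 5.89, 5.75 and 6.03, and the sulphotransferase Sult1c3 was 11.90, 11.39 and 11.51 against 5.57, 5.48 and 5.31, with each fetal array below the array median. The glucuronosyltransferase Ugt2b37 was 44.9-fold lower and the glutathione transferase Gstm2 29.4-fold lower. The flavin monooxygenase Fmo1 was among the exceptions, at 10.16, 10.62 and 10.58 in adult and 11.73, 11.84 and 11.70 in OC.2- cells, 2.46-fold higher (95% interval 2.05 to 2.96). Aldh1b1, a mitochondrial aldehyde dehydrogenase, was 7.99, 7.48 and 7.43 against 9.75, 9.88 and 9.54, 4.25-fold higher (95% interval 3.47 to 5.22). The glutathione transferases also divided, since Gstp1, known from fetal and preneoplastic rat liver, was 6.61, 6.38 and 6.72 against 9.17, 8.82 and 8.87, 5.22-fold higher (95% interval 4.43 to 6.15) and Gsta3 was 4.80-fold (95% interval 3.82 to 6.04) higher.

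Bile acid genes had the next lowest median. Of 26 genes 22 were lower and 2 higher in OC.2- cells (median -2.41). Cyp7a1, the rate-limiting enzyme of synthesis, was 10.36, 10.69 and 9.95 on adult and 7.65, 7.71 and 7.16 on OC.2- arrays, 7.10-fold lower (95% interval 5.44 to 9.26). Cyp8b1, which sets the share of cholic acid, was 10.64, 10.71 and 10.58 against 6.73, 6.94 and 6.78, 14.2-fold lower (95% interval 12.4 to 16.2), and Slc27a5, which activates bile acids for conjugation, 14.0-fold lower. Uptake and export were lower too: the sodium-dependent importer Slc10a1 was 12.43, 12.45 and 12.44 against 9.20, 9.54 and 9.14, 8.86-fold lower (95% interval 7.22 to 10.9), and the canalicular export pump Abcb11 11.44, 11.53 and 11.47 against 7.98, 8.04 and 7.63, 12.1-fold lower (95% interval 10.4 to 14.1). The bile acid receptor Nr1h4 (FXR) differed by -1.88 ± 0.12 and its target repressor Nr0b2 (SHP) by -2.96 ± 0.10. Abcc3, an export pump of the blood side, ran the other way at 6.11, 6.16 and 6.09 against 7.64, 7.62 and 7.44, 2.73-fold higher (95% interval 2.43 to 3.06), and Cyp7b1 was called higher from dim values (0.57 ± 0.09).

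Among 50 uptake and efflux transporters 35 were lower and 9 higher in OC.2- cells (median -0.67). The organic anion importer Slco1a4 was 33.8-fold lower, the mitochondrial carrier Slc25a47 26.6-fold lower and the amino acid carrier Slc38a4 9.80-fold lower. Among the 9 higher, Slc2a1, the glucose carrier of fetal and red cells, was 7.31, 7.35 and 7.69 against 9.46, 9.45 and 9.36, 3.92-fold higher (95% interval 3.35 to 4.58), and Slc7a5, an importer of large neutral amino acids, 6.74, 7.40 and 6.91 against 8.82, 8.82 and 8.82, 3.48-fold higher (95% interval 2.84 to 4.27). On the OC.2+ arrays Slc7a5 was 9.63, 9.57 and 9.75. Aqp9, the glycerol channel of the hepatocyte, was 9.69, 9.97 and 9.48 against 11.37, 11.51 and 11.25, 3.16-fold higher (95% interval 2.58 to 3.88), whereas Aqp8 was not called (0.26 ± 0.12).

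Genes of the urea cycle were lower but still bright in the fetal cells. Of 11 genes of the cycle and nitrogen handling 8 were lower and 3 higher (median -1.16). Otc, its second enzyme, was 10.60, 10.46 and 10.29 in adult and 9.99, 10.10 and 9.86 in OC.2- cells, lower by 1.38-fold (95% interval 1.13 to 1.68), a smaller distance than those of the later enzymes. Ass1 differed by -1.36 ± 0.10, Asl by -1.97 ± 0.09 and Arg1, which releases urea, by -2.08 ± 0.14, with Arg1 at 10.93, 10.46 and 10.37 against 8.56, 8.65 and 8.30. Glud1, glutamate dehydrogenase, was called higher (0.38 ± 0.09), though not after cyclic loess, as was the ammonia carrier Rhbg (0.48 ± 0.17), whose arrays overlapped between the groups.

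Amino acid breakdown was broadly lower, with 44 of 53 genes lower and 3 higher (median -1.18). Tat, which starts tyrosine breakdown and is a classic gene of the newborn liver, was 11.93, 11.73 and 11.93 on adult and 5.06, 4.88 and 4.95 on OC.2- arrays, 119.6-fold lower (95% interval 104 to 138, adjusted p = 6.6e-14). Tdo2, which opens the tryptophan ring, was 11.85, 10.93 and 11.26 against 4.77, 4.62 and 5.05, 92.5-fold lower (95% interval 68.4 to 125). All fetal values of both genes lie below the array medians. Cdo1, which makes cysteine sulphinate, was 18.9-fold lower and histidase (Hal) 10.6-fold lower. The later steps of tyrosine breakdown were closer to the adult level, with Hpd at -0.94 ± 0.08, Hgd at -0.64 ± 0.10 and Fah at -0.71 ± 0.10. Got2, Qprt and Agxt2 were the 3 called higher, between 0.33 and 0.43, and Got1 was not called. With median centring the call was lost for the gene Got2 (adjusted p = 0.193), the gene Qprt (adjusted p = 0.103) and the gene Agxt2 (adjusted p = 0.0798).

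Genes of glucose output were lower and those of glycogen mixed. Of 17 genes of gluconeogenesis and glycogen 11 were lower and 5 higher (median -0.70). Pck1, the first committed enzyme of gluconeogenesis, was 12.51, 12.32 and 12.23 in adult and 7.44, 7.43 and 7.44 in OC.2- cells, 30.1-fold lower (95% interval 26.4 to 34.4), and G6pc1, which frees glucose, 11.88, 12.28 and 11.99 against 7.27, 7.50 and 7.05, 27.4-fold lower (95% interval 22.8 to 32.9). Fbp1 differed by -2.68 ± 0.18. Gys2, the glycogen synthase of liver, was by contrast 9.17, 9.03 and 9.19 against 10.92, 10.94 and 10.70, 3.31-fold higher (95% interval 2.85 to 3.83). Pygb, the brain form of glycogen phosphorylase, was 6.35, 6.47 and 6.62 against 8.25, 8.32 and 8.03, 3.29-fold higher (95% interval 2.85 to 3.79), while the liver form Pygl was lower (-0.39 ± 0.09). Ppargc1a, a coactivator of gluconeogenic genes, was higher from dim adult values (1.03 ± 0.12), opposite in sign to Pck1 and G6pc1.

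Glycolytic isozymes shifted in part towards the forms of growing tissue. Of 17 genes of the fetal-type forms 9 were higher and 1 lower in OC.2- cells (median 0.45), and of 10 adult-liver forms 7 were lower and 1 higher (median -1.03). Aldoa was 8.59, 8.69 and 8.88 against 10.85, 10.64 and 10.60, 3.94-fold higher (95% interval 3.38 to 4.59) and hexokinase Hk1 6.26, 6.39 and 6.31 against 7.80, 7.77 and 7.80, 2.77-fold higher (95% interval 2.48 to 3.10). Both were higher still on the OC.2+ arrays, with means of 11.38 and 9.81. Pkm, the pyruvate kinase of growing tissue, was 7.08, 6.95 and 7.10 against 7.97, 7.97 and 7.97, but its 2 probe sets disagree, with log2 differences of -0.19 and 0.93. Pklr, the form of liver and red cells, was 10.54, 10.86 and 10.69 against 10.12, 10.15 and 10.17, lower by 1.47-fold (95% interval 1.29 to 1.67). Its OC.2+ values were 10.90, 10.86 and 10.85, and the part of red-cell RNA in its values was not tested. The fructose enzymes Khk and Tkfc were 3.01-fold and 5.66-fold lower. Ldha, lactate dehydrogenase A, ran against its list at -0.69 ± 0.08, and Gapdh and Pgk1 were not called.

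Genes of fat burning were mostly lower. Of 47 genes of fatty acid oxidation, ketone formation and peroxisomes 38 were lower and 2 higher (median -1.04). Cpt1a, the gate to mitochondrial oxidation, was 10.49, 10.29 and 10.39 on adult and 6.63, 6.60 and 6.63 on OC.2- arrays, 13.6-fold lower (95% interval 12.2 to 15.3). The peroxisomal oxidase Hao2 was 11.41, 10.95 and 11.20 against 4.93, 5.02 and 5.07, 72.6-fold lower (95% interval 60.3 to 87.3), and Cyp4a1, an omega-hydroxylase and PPAR-alpha target, 10.31, 10.31 and 10.31 against 6.82, 6.92 and 6.63 (log2 difference -3.52 ± 0.08). The receptor Ppara itself was higher in the fetal cells, at 9.19, 8.88 and 8.78 against 9.83, 10.02 and 9.60, 1.83-fold higher (95% interval 1.50 to 2.23, adjusted p = 0.000121). Cpt2, the partner of Cpt1a, differed by -0.43 ± 0.08, and Hadha and Hadhb were not called.

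Fat and sterol synthesis was lower for 24 of 38 genes and higher for 6 (median -0.61). Thrsp, a lipogenic protein induced by thyroid hormone and carbohydrate, was 12.51, 12.42 and 12.18 against 6.60, 6.25 and 6.81, 56.5-fold lower (95% interval 45.2 to 70.6). Insig2, which holds SREBP in the endoplasmic reticulum, was 21.8-fold lower and the NADPH source Me1 12.3-fold lower. Stearoyl-CoA desaturases differed in direction: Scd was 12.37, 12.46 and 11.83 in adult and 9.09, 9.06 and 9.08 in OC.2- cells, 8.85-fold lower (95% interval 7.23 to 10.9), and Scd2, which is on no list, was 6.65, 5.59 and 6.27 in adult and 11.83, 11.84 and 11.69 in OC.2- cells, 49.0-fold higher (95% interval 36.7 to 65.6). These forms are close in sequence, and adult Scd2 values lie around the array medians. Elovl6, which extends palmitate, was 8.56, 8.74 and 8.32 against 11.01, 10.99 and 10.79, 5.23-fold higher (95% interval 4.37 to 6.26), and the sterol enzyme Sqle 0.99 ± 0.10. Fasn differed by -0.54 ± 0.08, and Fdps, Fdft1 and Srebf2 were not called.

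Liver transcription factors and nuclear receptors were lower for 32 of 50 genes and higher for 4 (median -0.85). Hnf4a, given above, was 2.20-fold (95% interval 1.91 to 2.55) lower. Cebpa, a driver of metabolic genes, was 9.32, 9.40 and 9.55 against 8.42, 8.42 and 8.04, 2.20-fold lower (95% interval 1.83 to 2.63). Drug sensing showed the same direction, with the xenobiotic receptors Nr1i3 (CAR) at -1.80 ± 0.15 and Nr1i2 (PXR) at -1.01 ± 0.10. The oestrogen receptor Esr1 was 8.31, 8.23 and 8.05 against 5.78, 5.81 and 5.91, 5.15-fold lower (95% interval 4.46 to 5.95), and Zbtb20, a repressor of Afp, 3.80-fold (95% interval 3.37 to 4.28) lower. Of the 3 Foxa factors, which open liver chromatin, Foxa1 differed by -1.55 ± 0.12, Foxa2 by -0.45 ± 0.12 and Foxa3 was not called (-0.09 ± 0.09). Gata4 was called higher at 7.06, 7.14 and 7.19 against 7.98, 7.56 and 7.82. It is also expressed by liver endothelium and mesenchyme, whose part in its values was not tested.

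The growth hormone and IGF axis showed an exchange of ligands. In adult tissue pituitary growth hormone acts through Ghr and drives hepatic Igf1, whereas the fetus grows mainly under Igf2. Of 27 genes 11 were higher and 12 lower (median 0.07). Igf1 was 13.13, 13.10 and 13.06 on adult and 8.92, 8.77 and 8.41 on OC.2- arrays, 21.1-fold lower (95% interval 17.8 to 24.9), and Igf2 was 6.05, 6.47 and 5.75 on adult and 12.52, 12.62 and 12.48 on OC.2- arrays, 87.5-fold higher (95% interval 70.7 to 108, adjusted p = 1.86e-12). No array of one group reaches the range of the other for either ligand. Among the receptors Ghr was 11.83, 11.66 and 11.70 against 9.60, 9.76 and 9.35, 4.46-fold lower (95% interval 3.76 to 5.28), Egfr 7.12-fold (95% interval 6.13 to 8.27) lower and Igf2r, which clears IGF2, 7.64, 7.69 and 7.59 against 9.28, 9.62 and 9.01, 3.17-fold higher (95% interval 2.61 to 3.85).

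Carriers and signalling genes of the axis divided as well. Igfals, the partner that keeps IGF in the circulation, was 10.28, 10.36 and 10.30 against 7.28, 7.28 and 7.15, 8.45-fold lower (95% interval 7.51 to 9.51). Igfbp2, the binding protein of fetal serum, was 5.67, 6.04 and 5.82 against 8.55, 8.64 and 8.08, 5.99-fold higher (95% interval 4.88 to 7.36), and Igfbp1 was 11.25, 11.82 and 11.48 against 12.36, 12.29 and 12.14, 1.68-fold higher (95% interval 1.37 to 2.06). Igfbp4 was lower (-2.38 ± 0.12). Igfbp7, higher by 2.58 ± 0.21, is also made by endothelium, whose markers were higher in the same preparations. The part of such cells in its values was not tested. Socs2, a feedback inhibitor induced by growth hormone, was lower (-2.49 ± 0.25) at 6.72, 6.68 and 6.65, against adult values of 8.47, 9.16 and 9.90 that differ widely among themselves. Socs3 was higher (2.09 ± 0.12), as was the LIF receptor Lifr (6.71, 6.73 and 7.07 against 8.66, 8.57 and 8.63).

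**Figure D4:**
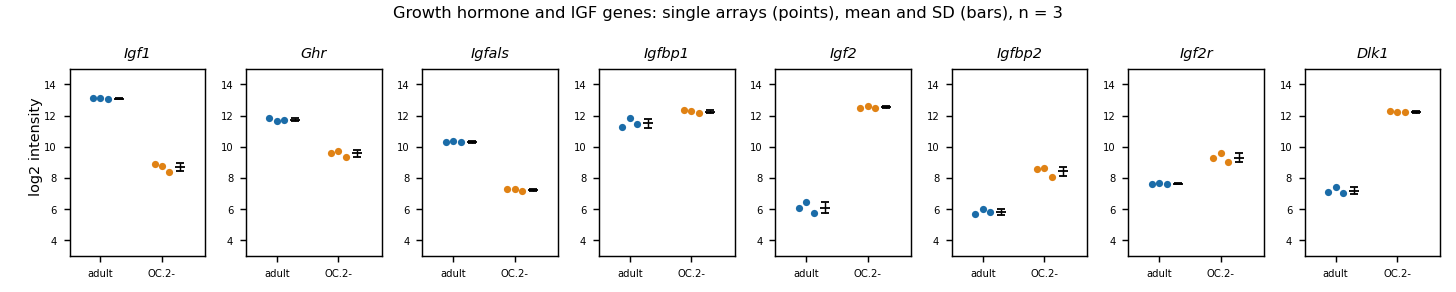
Log2 intensity of genes of the growth hormone and IGF axis, and of Dlk1, in adult hepatocytes (blue) and OC.2- fetal cells (orange), 1 point for each array with the mean and SD of 3 beside them. Igf1, Ghr and Igfals are lower in the fetal cells and Igf2, Igfbp2, Igf2r and Dlk1 higher, with no overlap, and Igfbp1 differs least.

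Metal handling divided between iron sensing and metal storage. Of 26 genes 10 were higher and 10 lower (median -0.12). Metallothioneins, which hold zinc and copper, were bright in the fetal cells, Mt1 at 11.59, 12.19 and 11.36 in adult and 14.04, 14.06 and 13.98 in OC.2- cells, 4.98-fold higher (95% interval 3.91 to 6.33) and Mt2A at 11.85, 12.30 and 10.99 against 14.07, 13.96 and 13.91, 4.82-fold higher (95% interval 3.40 to 6.83). The pair is near-identical in sequence and may share probes. Adult arrays spread by more than 0.8 log2 units for both. The hepcidin system was lower, with Hamp, the iron hormone, at 11.73, 11.88 and 12.29 against 10.48, 10.58 and 10.88 and its coreceptor Hjv 5.56-fold lower. The transferrin receptor Tfrc was 8.26, 8.16 and 8.16 against 9.55, 9.71 and 9.69 and 11.29, 11.36 and 11.39 on the OC.2+ arrays. Tfrc also marks red-cell precursors, and their part in its values was not tested.

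Retinol and vitamin genes were lower for 17 of 28 genes and higher for 3 (median -0.59). Rdh16, a retinol dehydrogenase, was 10.77, 10.40 and 10.83 against 5.14, 5.39 and 5.73, 38.0-fold lower (95% interval 29.8 to 48.4), and the vitamin E transfer protein Ttpa 6.54-fold lower. Rbp2, a retinol-binding protein best known from the intestine, was on no list and was 5.80, 6.13 and 5.99 in adult and 11.32, 11.15 and 11.12 in OC.2- cells, 37.4-fold higher (95% interval 32.4 to 43.1).

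Markers of both zones of the adult lobule were mostly lower in the fetal cells than in adult hepatocytes. Of 14 periportal genes 13 were lower and 1 higher (median -1.37), and of 18 pericentral genes 13 were lower and 4 higher (median -0.97). Pigr, which carries immunoglobulin A into bile, was 12.28, 12.36 and 12.32 against 5.64, 5.94 and 5.95, 88.9-fold lower (95% interval 77.2 to 102), and the periportal glutaminase Gls2 9.79, 9.39 and 9.64 against 7.60, 7.75 and 7.31, 4.15-fold lower (95% interval 3.43 to 5.02). The Wnt targets of the central zone did not share one direction, since Axin2 was lower (-0.50 ± 0.09) while Lgr5, Nkd1 and Rhbg were called higher, Lgr5 from dim values (5.77, 5.90 and 6.04 against 6.44, 6.73 and 6.47). The members of these lists that also belong to the metabolic lists above, such as Cyp2e1, Cyp7a1, Pck1 and G6pc1, are not separate evidence.

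Genes of the respiratory chain stayed close to the adult level. Of 46 genes of the respiratory chain and ATP synthase 16 were lower, 3 higher and 27 not called (median -0.12). The direction depended on the scaling, with 12 higher and 9 lower after quantile normalization and 1 higher and 27 lower after cyclic loess. Uqcrfs1, the iron-sulphur protein of complex III, was 8.38, 8.14 and 8.66 against 7.56, 7.56 and 7.35 (1.87-fold lower) and Sdha of complex II 1.67-fold lower. Atp5f1b, the catalytic subunit of ATP synthase, was 11.89, 11.82 and 11.88 against 11.96, 12.09 and 11.88 and not called. The gene Atp5f1d was called higher (0.25 ± 0.08) but turned to -0.096 after cyclic loess.

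Clock genes were lower for 7 of 16 and higher for 3 (median -0.20). Npas2, of the activating arm, was 7.92, 7.91 and 7.96 in adult and 5.97, 5.80 and 6.18 in OC.2- cells, and its relative Clock 9.03, 8.96 and 9.10 against 7.67, 7.67 and 7.60. Nr1d1, the repressor, was 8.74, 8.40 and 7.67 in adult and 6.25, 6.31 and 6.37 in OC.2- cells, with a wide adult spread. Per1 was higher (6.87, 6.65 and 6.53 against 7.87, 7.78 and 7.70). The time of day at which cells were taken is not given in the labels, so its part in these values was not tested.

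Genes of cell division were higher almost throughout. Of 34 mitosis genes 34 were higher (median 1.08), of 38 DNA replication genes 35 were higher and 1 lower (median 0.89), and of 29 genes of cell cycle entry and its inhibitors 14 were higher and 9 lower (median 0.40). Cdc25b, the phosphatase that releases mitosis, was 6.55, 6.74 and 6.89 on adult and 9.09, 9.06 and 9.19 on OC.2- arrays, 5.21-fold higher (95% interval 4.54 to 5.98). Plk1, a mitotic kinase, was 6.42, 7.30 and 7.03 against 8.81, 8.73 and 8.77, and Mcm6, part of the replicative helicase, 5.32, 5.88 and 5.74 against 7.61, 7.64 and 7.61, 3.93-fold higher (95% interval 3.27 to 4.73). Pcna, the sliding clamp of replication, was 7.26, 7.36 and 7.14 against 9.10, 8.83 and 9.02. Among cyclins Ccne1 was 5.94, 5.96 and 5.97 against 7.76, 7.76 and 7.76, 3.48-fold higher (95% interval 3.12 to 3.88) and Ccnd2 3.54-fold higher, while Ccnd1, the cyclin of hepatocyte entry, was lower (-0.37 ± 0.10). The antiproliferative Tob1 was lower (-1.63 ± 0.12), and Myc was not called (5.90, 6.93 and 6.96 against 7.21, 7.12 and 6.93).

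These genes were brighter still in the OC.2+ preparations. The summed intensity of the mitosis list was 2623 to 3653 on adult, 7178 to 7446 on OC.2- and 15590 to 15970 on OC.2+ arrays, and that of DNA replication 3796 to 4228, 7865 to 7927 and 17040 to 18460. The erythroid list, described below, has the same order of groups. The part of dividing blood cells in the OC.2- values was not tested.

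Chromatin and DNA methylation genes were higher for 12 of 23 and lower for 3 (median 0.24), and ribosome biogenesis genes for 13 of 26 with 0 lower (median 0.24). Cbx3, a heterochromatin protein, was 7.98, 7.58 and 8.27 against 9.81, 9.89 and 9.73, 3.65-fold higher (95% interval 2.94 to 4.53), and Dnmt1, which copies methylation at replication, 7.45, 7.50 and 7.38 against 8.66, 8.66 and 8.66, 2.32-fold higher (95% interval 2.07 to 2.60). Npm1, the nucleolar nucleophosmin, was 8.73, 8.36 and 8.60 against 9.93, 10.03 and 9.87, 2.60-fold higher (95% interval 2.25 to 3.01) on the probe set kept, but its 4 probe sets gave log2 differences from 0.23 to 1.38. Nop56, of the small nucleolar RNP, was 2.47-fold higher.

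Immediate early and stress genes, which respond to cell isolation within minutes to hours, were higher for 18 of 36 and lower for 6 (median 0.25). Ccl2, a chemokine for monocytes, was 6.71, 7.21 and 7.55 in adult and 10.92, 10.44 and 11.22 in OC.2- cells (log2 difference 3.70 ± 0.21), and Fos 6.72, 6.47 and 7.27 against 9.36, 9.21 and 9.37, 5.62-fold higher (95% interval 4.45 to 7.09). Other immediate early genes ran the other way, Nr4a1 at 7.37, 8.71 and 8.60 against 6.85, 6.56 and 6.73 and Dusp1 at -0.93 ± 0.14. Jun, Ier2 and Ddit3 were not called, and the acute-phase protein Crp was lower, 6.92-fold (95% interval 5.98 to 8.02). The summed intensity of the list was 24690 to 29730 on adult and 34430 to 36290 on OC.2- arrays. Isolation differed between the groups, and its part was not tested.

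Interferon and antigen presentation genes were lower for 16 of 28 and higher for 3 (median -0.50). The immunoproteasome subunit Psmb9 was 10.02, 9.72 and 9.96 against 7.05, 6.72 and 7.05, 7.79-fold lower (95% interval 6.42 to 9.44) and Psmb8 3.93-fold lower. B2m, the light chain of class I molecules, was 13.20, 13.19 and 13.11 against 11.59, 11.53 and 11.75, 2.91-fold lower (95% interval 2.57 to 3.31), and the antiviral enzyme Oas1a 6.07-fold lower. Irf1 was an exception (7.53, 7.53 and 7.26 against 8.92, 8.51 and 9.16).

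The second component was the marker lists of other cell types, among them red-cell genes. Which cells made the RNA of these genes was not tested. Of 33 erythroid genes 28 were higher in OC.2- cells than in adult hepatocytes and 3 lower (median 1.45). Ahsp, the chaperone of alpha-globin, was 4.73, 4.41 and 5.29 on adult, 11.05, 11.13 and 11.36 on OC.2- and 12.56, 12.59 and 12.62 on OC.2+ arrays, 82.7-fold higher in OC.2- than in adult (95% interval 64.0 to 107). Hbb was 6.99, 7.17 and 7.17 on adult, 12.79, 12.57 and 12.95 on OC.2- and 13.64, 13.60 and 13.57 on OC.2+ arrays, 50.6-fold higher in OC.2- than in adult (95% interval 43.6 to 58.6), and beta-globin genes are near-identical, so Hbb and Hbb-b1 may share probes. The band 3 anion exchanger Slc4a1 was 6.26, 6.16 and 6.35 in adult and 10.01, 9.93 and 10.17 in OC.2- cells (log2 difference 3.78 ± 0.09), and Alas2, the red-cell enzyme that starts haem synthesis, 13.8-fold higher. The 3 lower members Alad, Fech and Ppox are haem enzymes that hepatocytes also use, and the part of hepatocyte RNA in their values was not tested. The call of Ppox was lost with only the 6 arrays compared and that of Fech with quantile normalization.

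The embryonic globin Hbe1 did not share the order of the other globins. It was 5.83, 6.04 and 5.81 on adult, 12.63, 12.54 and 12.56 on OC.2- and 10.83, 10.70 and 10.83 on OC.2+ arrays, so it was highest in OC.2- cells, 103-fold above adult (95% interval 90.6 to 117), where Hbb and Ahsp were highest in OC.2+ cells. Over the whole erythroid list the summed intensity was 5597 to 5685 on adult, 28290 to 32360 on OC.2- and 65270 to 67320 on OC.2+ arrays, 5.33 times higher in OC.2- than in adult cells and 2.20 times higher again in OC.2+ cells. Gata1, the master factor of the lineage, had a mean of 5.44 in adult, below the array medians, and of 6.97 in OC.2- cells (1.53 ± 0.07).

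Markers of endothelium and mesenchyme were higher in OC.2- cells as well. Of 30 endothelial genes 27 were higher and 0 lower than in adult hepatocytes (median 1.48), and of 36 genes of stellate, mesenchymal and mesothelial cells 29 were higher and 1 lower (median 0.69). Lyve1, a hyaluronan receptor of sinusoids, was 7.86, 7.75 and 8.22 on adult, 10.91, 10.57 and 10.80 on OC.2- and 7.51, 7.72 and 7.62 on OC.2+ arrays, 7.05-fold above adult (95% interval 5.83 to 8.51). Oit3 and Gpr182, also of sinusoidal endothelium, were 7.83-fold and 7.14-fold higher than in adult cells, and Pecam1 was 6.22, 6.28 and 6.59 against 8.01, 7.83 and 7.85. The proteoglycan decorin (Dcn) was 5.67, 5.68 and 6.12 in adult, 10.28, 10.29 and 9.92 in OC.2- and 6.92, 6.69 and 6.75 in OC.2+ cells, 20.2-fold above adult (95% interval 16.5 to 24.7). The intermediate filament vimentin (Vim) was 7.01, 7.01 and 7.41 against 11.42, 11.08 and 11.24, 17.2-fold higher (95% interval 14.1 to 20.9), with 11.65, 11.50 and 11.30 on the OC.2+ arrays. Blood cells carry Vim too, and their part in its values was not tested. Pdgfrb, a pericyte receptor, ran the other way (-0.89 ± 0.09).

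Summed intensity of the endothelial list was 2971 to 3465 on adult, 8458 to 11420 on OC.2- and 2904 to 3075 on OC.2+ arrays. For the stellate and mesenchymal list it was 3632 to 4025, 11480 to 13490 and 6495 to 7449. The OC.2- ranges lie above both others for the 2 lists. On all adult arrays 9 of the 30 endothelial genes lay below the array median, and on all OC.2- arrays 2 did.

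Macrophage genes were mixed, with 22 of 33 higher and 5 lower (median 0.56). Cd68 was 6.68, 6.80 and 6.91 against 8.67, 8.34 and 8.08, 2.96-fold higher (95% interval 2.41 to 3.64), and the complement starter C1qb 7.48, 7.32 and 7.10 against 9.24, 8.74 and 8.89, 3.16-fold higher (95% interval 2.49 to 4.02). Mpeg1, the macrophage perforin, and Cd14, the endotoxin coreceptor, were 5.89-fold (95% interval 4.93 to 7.03) and 4.20-fold (95% interval 3.35 to 5.25) lower in OC.2- than in adult cells. Cd14 is also induced in hepatocytes, whose part in its values was not tested. The Kupffer cell markers differed among themselves. Marco and Clec4f were not called and lay near the array medians, Clec4f at 6.67, 6.50 and 6.84 against 6.97, 6.93 and 6.87. Vsig4, a complement receptor of these cells, was lower at 7.77, 7.42 and 7.09 against 6.44, 6.23 and 6.14, as was the lysozyme Lyz2 (-1.15 ± 0.18). The list summed to 4481 to 4586 on adult, 6434 to 8065 on OC.2- and 16350 to 18960 on OC.2+ arrays.

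Most granulocyte and lymphoid genes lay below the array medians on adult and OC.2- arrays alike, where the lists can show little. Over all genes 23.7% were called higher. Of 32 granulocyte genes 11 were higher, 0 lower and none reached 2-fold (median 0.16), and 6 were called after quantile normalization or median centring. Mpo, the peroxidase of their granules, was 6.14, 6.52 and 6.29 on adult, 6.89, 6.67 and 6.90 on OC.2- and 12.29, 12.38 and 12.21 on OC.2+ arrays, and S100a9, an alarmin of neutrophils, 5.16, 5.44 and 5.34 on adult, 5.13, 5.06 and 5.43 on OC.2- and 10.50, 10.63 and 10.40 on OC.2+ arrays. The list summed to 1823 to 1937 on adult, 2083 to 2306 on OC.2- and 30360 to 33920 on OC.2+ arrays, with 21 of the 32 genes below the array median on all adult and all OC.2- arrays. Of 30 lymphoid genes 6 were higher and 0 lower (median 0.12), 23 of them below the median throughout, with Cd3e at 5.91, 5.80 and 5.93 against 5.99, 5.98 and 5.99.

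Megakaryocyte genes were higher for 12 of 15 with 0 lower (median 0.62), and genes of mast cells, basophils and blood progenitors for 18 of 26 with 0 lower (median 0.43). Thbs1 and Fli1, of platelets and their precursors, differed by 1.31 ± 0.08 and 1.17 ± 0.10. Hdc, which makes histamine, was 6.45, 6.13 and 5.90 in adult, 12.91, 12.91 and 12.81 in OC.2- and 10.48, 10.29 and 10.34 in OC.2+ cells, 105-fold higher in OC.2- than in adult (95% interval 87.7 to 126). Of the rest of the list only Cd48, a leukocyte surface protein (7.14-fold), and Cpa3 passed 4-fold. The mast cell protease Cpa3 was 5.16, 4.92 and 4.89 against 7.17, 7.31 and 6.82, 4.31-fold higher (95% interval 3.62 to 5.14), Tpsb2 differed by 0.62 ± 0.11 and Ms4a2, of the IgE receptor, by 0.33 ± 0.12. Ptprc (CD45), carried by nearly all white cells, was 5.58, 5.70 and 5.83 in adult, 6.23, 5.96 and 6.27 in OC.2- and 8.16, 8.42 and 8.30 in OC.2+ cells, with all adult and OC.2- values below the array medians.

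Genes of ducts and progenitors were higher for 17 of 30 and lower for 1 (median 0.33), of which 11 stayed higher after median centring. Lgals2, a galectin, was 6.77, 6.78 and 7.21 against 10.01, 10.03 and 10.08, 8.71-fold higher (95% interval 7.15 to 10.6). Krt8 and Krt18, keratins of hepatocytes as well, differed by 0.67 ± 0.13 and 0.42 ± 0.10. Krt19, the duct keratin, was 5.56, 5.62 and 5.77 against 6.58, 6.51 and 6.62, 1.90-fold higher (95% interval 1.65 to 2.18), and Epcam was 5.87, 5.92 and 5.81 against 5.63, 5.69 and 5.84 and not called. Both are near or below the array medians, as is Spp1, so their folds cannot show expression. The duct factor Sox9 is not analysed here.

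**Figure D5:**
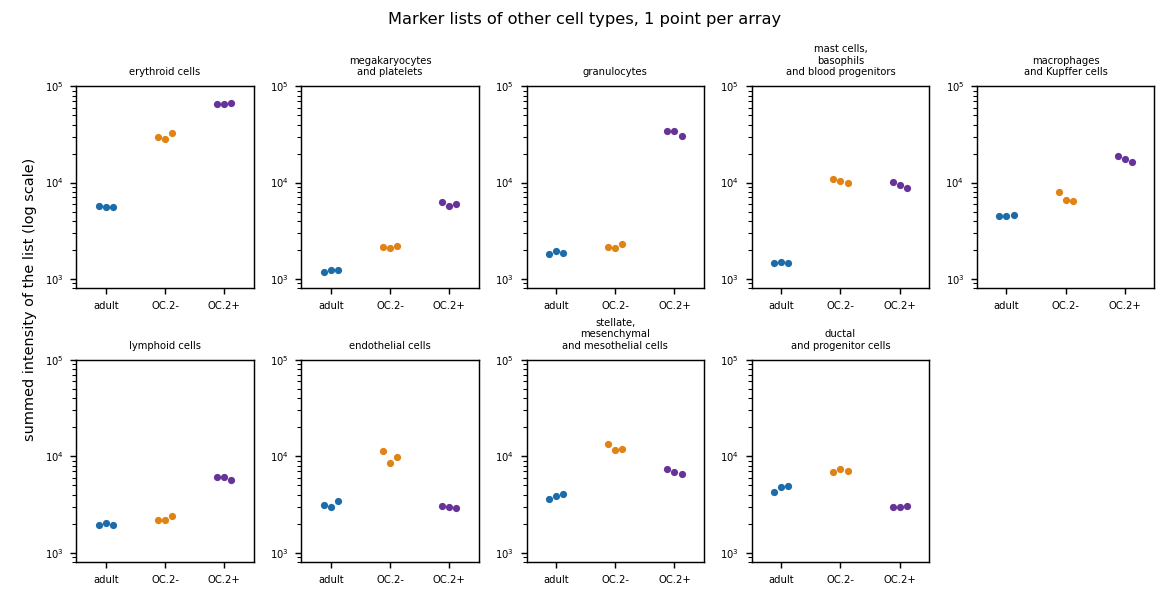
Summed intensity (log scale) of the genes on 9 marker lists of other cell types in adult hepatocytes (blue), OC.2- cells (orange) and OC.2+ cells (purple), 1 point for each array. Erythroid sums rise from adult to OC.2- to OC.2+ arrays, granulocyte sums are high on OC.2+ arrays, and endothelial and stellate sums are highest on OC.2- arrays.

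Lists of hepatocyte functions were dimmer in the OC.2+ than in the OC.2- preparations, all but that of fetal-type glycolysis. The erythroid list was brightest in the OC.2+ preparations. Summed intensity of the P450 list was 73450 to 78010 on adult, 9734 to 11990 on OC.2- and 3468 to 3755 on OC.2+ arrays, and that of the apolipoprotein list 77750 to 81280, 46310 to 50840 and 7305 to 8920. The coagulation list, by contrast, summed to 66770 to 70300 on adult and 60920 to 70010 on OC.2- arrays, with overlapping ranges, and to 12380 to 14500 on OC.2+ arrays. The fetal-type glycolysis list did not share this order, with ratios of 1.14 for OC.2- to adult and 1.05 for OC.2+ to OC.2- sums. The part of RNA from other cells in the lower values of hepatocyte genes was not tested.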

How the data were processed

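RNA of 3 preparations of each of 3 groups was measured, 1 array each. The values used are intensity on a linear scale, as deposited. Partek 6.6 and RMA are named for them, per the submitters' processing notes, which give no role. No source used here gives the genome build. Of 28826 probe sets, 15209 have 1 gene symbol in the platform annotation, 306 several and 13311 none. For 494 genes with several probe sets, the one with the highest mean was kept, which left 14497 genes, and no filter on dim genes was applied. Log2 intensity was fitted over all 9 arrays with limma 3.58.1 (lmFit and eBayes, R 4.3.3), and OC.2- minus adult was called at a Benjamini-Hochberg adjusted p under 0.05. On simulated data with 100 changed genes of each size, 98.0% of changes of 1 log2 unit and 70.0% of changes of 0.5 were called, with 10 unchanged genes called. The simulation drew independent normal noise and changed 200 genes, far fewer than were called in the data. Its rates therefore need not hold for this comparison.

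The members and lists were chosen with earlier results of these data known. Genes are named by a rule: up to 4 called members of each list in each direction with the largest difference and no overlap between arrays, the 15 highest and 15 lowest of all genes, and a set of markers. Other list members are named to show a pathway's steps and were chosen with their values known. The titles call replicates biological. The main fit did not pair arrays by replicate number. Deviations of same-numbered adult and OC.2- arrays correlated at 0.055, -0.196 and -0.154, but 3 arrays in a group are too few to decide on pairing. The same was not computed for OC.2+ against OC.2- arrays. Promoters and their coordinates are those of RefSeq, GRCr8. Alternatives were other scalings, filters, probe set means, variance models, array weights, fewer arrays and a replicate block.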

Additional observations from a re-analysis of the deposited data

How the results depend on the processing

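Of 262 named genes 260 were called, and 24 of the 262 changed their call or sign under at least 1 of 16 alternatives. Most named genes were chosen because they were called with large differences. Counts over them therefore do not show how stable the other calls were. Of 4148 values of the named genes under alternatives, 4053 kept direction and call, 86 lost the call, 3 gained it with the same sign and 6 turned sign. Among those 6, the gene Alb also gained a call with quantile normalization and with cyclic loess. The count of higher genes, 3431, was 2139 after median centring and 2043 of 7248 among genes above the median of mean intensity, where fewer genes were tested. Leaving out each array in turn gave 2862 to 3253 higher and 2803 to 2970 lower genes. With a replicate block 3237 were higher and 2962 lower. The gene Alb, 0.021 as deposited, was -0.295 with quantile normalization, -0.108 with median centring and -0.50 with cyclic loess, and -0.021 to 0.070 with 1 array left out (negative without adult replicate 3 or OC.2- replicate 1). The gene Atp5f1d, 0.249, was -0.096 after cyclic loess. The cause was not tested. Calls of Apoc4, Got2, Qprt, Agxt2, Serpina6 and Serpinf2 were lost under at least 1 rescaling. The call of gene Lap3 was lost after quantile normalization (adjusted p = 0.614), with only the 6 arrays (0.0738), without adult replicate 2 (0.13) and without OC.2- replicates 1 (0.0784) or 3 (0.128). Epcam was called lower after each of the 3 rescalings. Among lists, the respiratory chain had 2 higher and 23 lower after median centring, and lymphoid genes 3 higher and 3 lower after quantile normalization. Above the median of mean intensity, 6 mast cell and progenitor, 19 stellate and 8 ductal genes were higher and 21 transcription factors lower. Signal near background limits the folds of genes whose arrays in 1 group all lie below the array median.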

Other observations

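Several genes on none of the lists differed at least 8-fold, and they are named here after their values were seen. Among those lower in OC.2- cells, Car3, a cytosolic carbonic anhydrase abundant in male rat liver, was 13.32, 13.03 and 13.15 on adult and 5.80, 5.83 and 5.77 on OC.2- arrays, 165-fold lower (95% interval 144 to 189). Mettl7b, a methyltransferase-like protein, was 12.75, 12.68 and 12.49 against 6.30, 6.29 and 6.50, 77.3-fold lower (95% interval 67.3 to 88.8). Thyroid hormone handling included Dio1, the deiodinase that activates thyroxine, at -3.81 ± 0.08 and the iodotyrosine deiodinase Iyd at -3.25 ± 0.12, beside Thrsp among the lipogenic genes. The activin subunits Inhbc, Inhbe and Inhba differed by -3.38, -3.36 and -3.35 on the log2 scale. Avpr1a, the vasopressin receptor of hepatocytes, differed by -3.46 ± 0.16, and Prkaa2, a catalytic subunit of AMP kinase, by -3.66 ± 0.11. Agmo, which cleaves ether lipids, differed by -3.95 ± 0.11. Usp18, a brake on interferon signalling, differed by -3.55 ± 0.11, the direction of the interferon list.

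Among those higher, Psat1, of serine synthesis, was 7.29, 8.33 and 7.58 on adult and 11.18, 11.22 and 11.05 on OC.2- arrays, a log2 difference of 3.41 that was 0.84 on its other probe set. Lpl, lipoprotein lipase, which the adult rat liver hardly makes, was 4.85, 5.07 and 4.91 against 8.50, 8.82 and 8.11 and 6.25, 6.13 and 6.27 on OC.2+ arrays. Slc25a4, the heart and muscle form of the ADP/ATP carrier, was 5.78, 5.43 and 5.79 against 10.15, 10.23 and 9.76, and the slow muscle troponin Tnni1 6.05, 6.34 and 6.26 against 10.48, 10.47 and 10.24, with an OC.2+ mean of 7.58. The actin-binding Gsn and Anxa2 differed by 4.69 ± 0.11 and 4.46 ± 0.12. Ucp2, a mitochondrial carrier, was higher by 3.24 ± 0.14 and higher again on OC.2+ arrays (11.78, 11.84 and 11.80). All adult values of Psat1 lie above the array medians, whereas those of Lpl, Slc25a4 and Tnni1 lie at or below them.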
